A study of Mus musculus with 8 samples.

Results

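The genes described here encode the proteins of the mitochondrial ribosome. They were taken by symbol, as the rows of the deposited table whose names start with Mrpl or Mrps followed by a digit, which gave 78 of 15576 genes, 49 Mrpl and 29 Mrps. Their mRNA was measured by bulk RNA-seq in cells sorted from the bone marrow of CML mice, which the paper calls leukemic stem cells (LSCs). The mice were BCR-ABL×SCL-tTA double transgenics on the C57BL/6 strain, in which the SCL-driven transactivator switches BCR-ABL on in stem cells once tetracycline is withdrawn, and all 8 libraries come from animals of this genotype. The 4 CML libraries came from untreated mice, and the 4 CML-TKI libraries from mice given imatinib, a BCR-ABL kinase inhibitor, by gavage on alternate days, at 400 mg/kg for 4 weeks according to the labels. The methods of the paper name this dose and a lower one, and its legend states the lower one for the LSCs profiled, so the dose is uncertain. Age is not given, and no normal stem cells enter the comparison. The labels do not say that libraries came from separate animals, so p-values measure only the spread between these samples. The sample labels put every library in the Lin-Sca1+cKit+Flt3-CD150-CD48+ gate, whereas the figure legends of the paper describe LSCs as CD150+CD48-.

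The mitochondrial ribosome translates the few mRNAs encoded by mitochondrial DNA, all of which specify subunits of the respiratory chain and ATP synthase. Its RNAs are transcribed inside the organelle, but its proteins are encoded in the nucleus, made in the cytosol and imported, so that one particle depends on both genomes. Part of these proteins descend from bacterial ribosomal proteins and part were added in mitochondria. The large subunit forms the peptide bond and the small subunit holds the mRNA. LSCs that survive kinase inhibition are often discussed in terms of their mitochondrial metabolism, and the question asked of these genes was whether their mRNA differed between CML-TKI and CML LSCs.

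Total counts ranged from 4939639 to 8620097 in the CML and from 1041562 to 5104276 in the CML-TKI libraries. The 4 CML columns are numbered 1, 2, 3 and 5, and the last of these is called CML 5. A member had a median of 60 to 148.5 counts per CML library, of 56 to 89.5 in CML-TKI 1, 2 and 4, and of 10 in CML-TKI 3, where 35 members had fewer than 10 counts and 6 had 0. In CML-TKI 3, 3 counts correspond to 3.29 CPM (counts normalized to library size by TMM, the scale used throughout), so a count of 0 there allows a level of up to that value, for counting error only. The libraries also differed in the markers of several cell types. Summed granulocyte markers were 152 to 254 CPM in CML and 1440 to 8401 CPM in CML-TKI libraries (10 of 11 higher at an adjusted p under 0.05), and summed monocyte markers were 14.1 to 27.6 and 817 to 4383 CPM (7 of 7 higher). Stem cell markers summed to 1427 to 1581 CPM in CML and to 48.7 to 451 CPM in CML-TKI libraries, with 4 of 9 lower, and megakaryocyte markers to 1328 to 1583 and 64.1 to 562 CPM, with 2 of 7 lower. Erythroid markers summed to 173 to 214 CPM in CML and to 219 to 31796 CPM in CML-TKI libraries, with 1 of 6, Tfrc, higher. The highest sum was that of CML-TKI 3, where the globin gene Hba-a1 stood at 19625 CPM. B cell markers summed to 18 to 23.2 CPM in CML and 16.9 to 249.9 CPM in CML-TKI libraries, and T/NK cell markers to 15.1 to 31.2 and 11.2 to 126 CPM. Of 5 genes of the gate, Kit and Slamf1 were called lower and Cd48 higher. Kit was at 764 to 1023 CPM in CML and 194 to 290.4 CPM in CML-TKI libraries, Cd48 was at 3.86 to 6.40 CPM in CML and 39.9 to 178 CPM in CML-TKI libraries, and Slamf1, which encodes CD150, at 29 to 37.7 and 0.62 to 6.58 CPM. The name LSC is kept from the paper for both groups, but how far the CML-TKI libraries consist of stem cells is not known. In bulk RNA fewer cells of a type and less RNA per cell cannot be told apart, and the part of these differences in the values below was not tested. CML 1, 2 and 3 resembled one another more than any other pair within a group. Their pairs differed by 2.67 to 3.08 times the variance of counting (median over genes), against 17.1 to 37.6 times for the remaining pairs, which is more than counting noise but can also arise between repeats of one amplified preparation. The sources used here do not say whether these 3 are separate mice, and if they are not, the CML group holds fewer than 4 independent samples. With them summed to 1 library, edgeR called 0.971% of all genes and 0 of the members described here.

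Of the 78 genes, 77 had enough counts to be tested, among 11937 genes tested in all. None of the 77 was called higher or lower in CML-TKI LSCs by edgeR's quasi-likelihood test at an adjusted p under 0.05, where 10.2% of all genes tested were called, 6.29% as higher and 3.93% as lower. At an unadjusted p under 0.05 the same test passed 3 members, Mrpl33, Mrpl1 and Mrpl58, against 25.7% of all genes. DESeq2 called these 3 genes and limma-voom with quality weights for the libraries called Mrpl33 and Mrpl51, all as higher, while those tools called 18.1% and 21.3% of all genes. The median log2 fold change of CML-TKI over CML was 0.11 for the members and -0.00026 for all genes, with 50 members above and 27 below 0 (38 above with totals without Rn45s and 58 above with library totals). Scaling the libraries to their totals without the ribosomal RNA gene Rn45s shifted all genes down alike, to medians of -0.011 for the members and -0.12 for all genes, so that the members' offset from all genes was 0.11 in both cases. The offset was 0.29 with limma-voom and quality weights, which changes both the tool and the weight of each library, and the medians there were 0.18 and -0.11. With CML 1, 2 and 3 summed to 1 library the members' median was -0.0088 and that of all genes 0.02. The members lay close to 0 as a group, with 63 of 77 (81.8%) under 0.5 in absolute log2 fold change, compared with 48.4% of all genes. Mrpl33 and Mrpl22 alone reached 1 (2.6% of the members, against 25.8% of all genes).

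**Figure D1:**
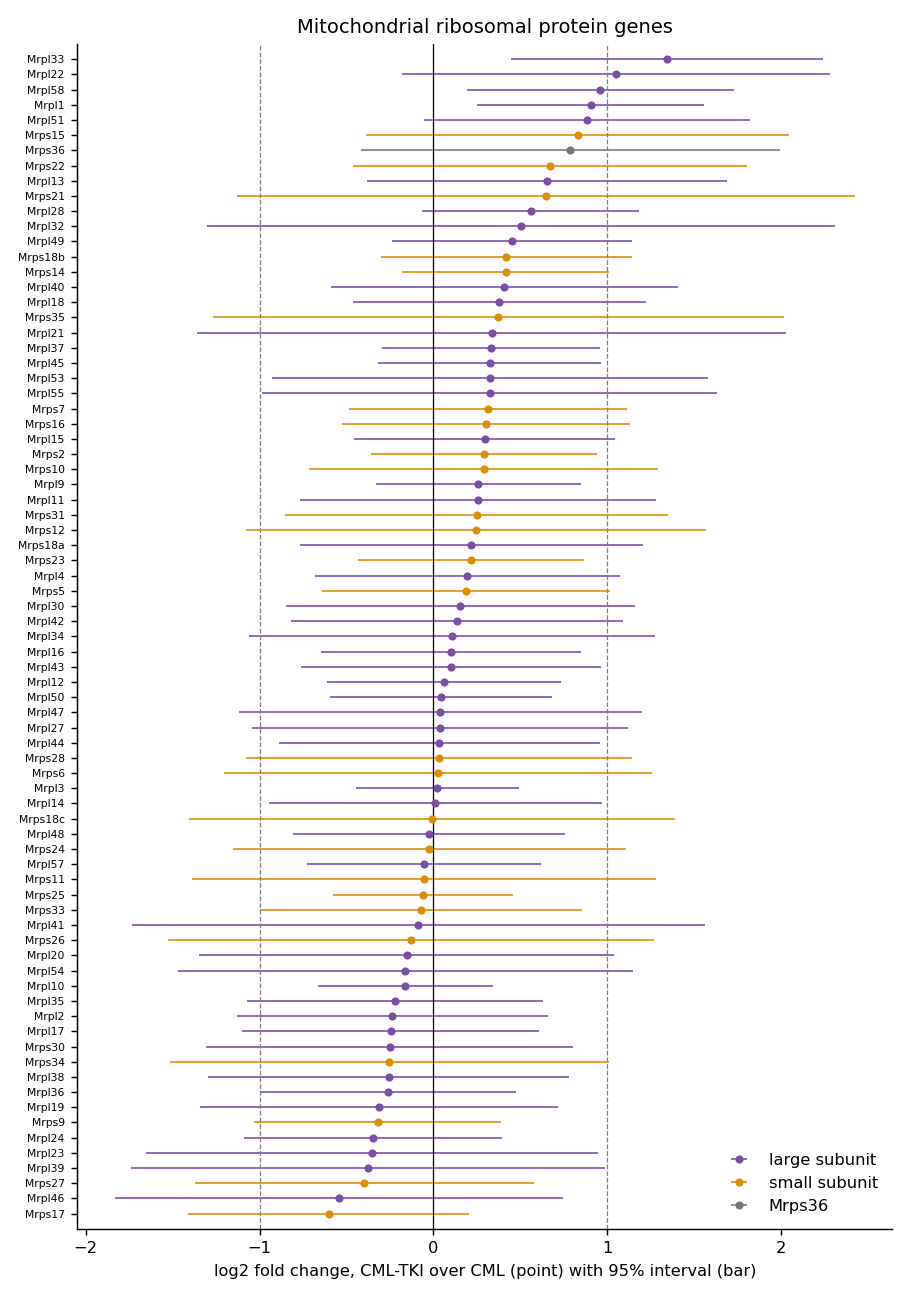
Log2 fold change of CML-TKI over CML for each of the 77 tested genes (points) with its 95% interval (bars), ordered by value and coloured by the subunit in which the protein sits. Dashed lines mark a 2-fold change in each direction. The points run from -0.60 (Mrps17) to 1.34 (Mrpl33), and for 17 genes the whole interval lies between the dashed lines.

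The intervals say how much change remained possible. For 17 of the 77 genes the 95% interval stayed within 2-fold in both directions, for 31 it left out a 2-fold rise and for 45 a 2-fold fall. The median standard error was 0.43 for members and 0.40 for all genes, so single members were measured about as precisely as other genes, and for most of them a 2-fold difference in at least one direction lay within the interval.

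Summed over all members, the mitochondrial ribosomal protein mRNAs stood at 1297, 1357, 1207 and 1736 CPM in CML 1, 2, 3 and 5 and at 1671, 1670, 1259 and 1508 CPM in CML-TKI 1 to 4. The groups overlapped, at 1399 ± 233 and 1527 ± 194 CPM (SD, n = 4 each), with CML 5 above every CML-TKI library. The 49 Mrpl genes summed to 893 ± 145 CPM in CML and 1000.3 ± 128 CPM in CML-TKI LSCs, and the 29 Mrps genes to 507 ± 90.6 and 527 ± 71.5 CPM. The ratio of the former sum to the latter was 1.77 ± 0.11 in CML and 1.90 ± 0.12 in CML-TKI libraries, with overlapping ranges of 1.67 to 1.93 and 1.74 to 1.99. These sums weight abundant and long mRNAs most and are no measure of assembled ribosomes.

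Placed by the subunit in which the protein sits rather than by symbol, 50 large-subunit genes had a median log2 fold change of 0.10 (33 above and 17 below 0) and 26 small-subunit genes one of 0.20 (16 above and 10 below). Proteins with a bacterial homolog and those added in mitochondria did not separate. The 45 tested genes counted as having a bacterial homolog had a median of 0.11 and ran from -0.60 to 1.34. The 31 counted as added had a median of 0.10 and ran from -0.55 to 0.96.

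The large-subunit genes with the highest fold changes are given next, and promoters are shown for 4 of them that held 2 copies of one short motif near the start, a feature noticed after their values were seen. The sequences are 120 bases from 100 before to 20 after an annotated start in RefSeq (GRCm38.p6, all on the plus strand), at chr5:31613851-31613970 for Mrpl33, chr11:58171564-58171683 for Mrpl22, chr11:115403652-115403771 for Mrpl58, chr6:125192100-125192219 for Mrpl51 and chr5:129715397-129715516 for Mrps17, the gene with the lowest fold change, shown for contrast. Capitals mark CCGGAA, the core shared by binding sites of ETS family factors, or TTCCGG, its reverse complement.
Mrpl33: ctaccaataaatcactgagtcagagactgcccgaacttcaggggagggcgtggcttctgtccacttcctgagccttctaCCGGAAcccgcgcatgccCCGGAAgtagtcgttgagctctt
Mrpl22: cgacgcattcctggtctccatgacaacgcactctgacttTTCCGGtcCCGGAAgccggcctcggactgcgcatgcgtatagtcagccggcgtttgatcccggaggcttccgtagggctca
Mrpl58: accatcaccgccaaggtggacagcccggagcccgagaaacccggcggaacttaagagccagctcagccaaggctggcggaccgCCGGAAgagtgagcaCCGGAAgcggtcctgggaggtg
Mrpl51: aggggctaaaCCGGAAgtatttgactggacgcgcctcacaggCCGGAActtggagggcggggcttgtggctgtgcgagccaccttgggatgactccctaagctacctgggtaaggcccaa
Mrps17: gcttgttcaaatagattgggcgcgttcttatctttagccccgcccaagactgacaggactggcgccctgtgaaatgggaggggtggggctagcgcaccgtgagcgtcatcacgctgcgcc
The copies start at positions -21 and -3 in Mrpl33, -61 and -53 in Mrpl22, -17 and -2 in Mrpl58 and -90 and -58 in Mrpl51, counted from the annotated start, and Mrps17 held none in its 300-base window. Copies were also found in genes with low fold changes. Mrps27, with the third lowest value, held 2 and Mrpl39 held 1, and of 15 members with 2 or more copies 10 had a log2 fold change above 0, 4 one below 0 and Mrpl52 was not tested. RefSeq windows of 250 bases before to 50 after a start were matched for 69 of the 78 genes. CCGGAA on either strand was found in 40 of these 69 (58.0%), in 32.1% of 9507 tested genes and in 16.7% of all 27025 genes with a window. It was present in 28 of 45 members with a log2 fold change above 0 and in 11 of 23 below 0. The NRF1 motif GCGCNTGCG, bound by a regulator of nuclear genes for mitochondria, was found in 26.1% of members, 15.8% of tested genes and 7.12% of all genes. TTCNNNGAA, the palindrome of STAT factors, was found in 8.70%, 8.15% and 9.55%, and the GC box GGGCGG in 49.3%, 68.9% and 38.2%. Median GC content was 58% for members, 60.7% for tested genes and 52.8% for all genes, all motifs were searched on both strands, and a match is a run of letters, not a site shown to be bound.

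Mrpl33 (gene ID 66845, chr5:31613951-31622644 on the plus strand) encodes a small protein of the large subunit with a counterpart in bacteria. It was at 10.5, 10.8, 7.34 and 20.8 CPM in CML 1, 2, 3 and 5 and at 21.7, 27.9, 44.9 and 32.5 CPM in CML-TKI 1 to 4. Every CML-TKI library lay above every CML library, although CML 5 and CML-TKI 1 almost met. The means were 12.3 ± 5.82 and 31.7 ± 9.85 CPM (SD, n = 4 each), for a log2 fold change of 1.34 (SE 0.40, 95% interval 0.45 to 2.24, edgeR adjusted p = 0.0632). Leaving out single libraries moved the adjusted p of edgeR between 0.0306 and 0.178, it was 0.459 with CML 1, 2 and 3 summed to 1 library, and it was under 0.05 without CML 5 (0.0344, where 6.6% of all genes were called) and without CML-TKI 1 (0.0306, where 20.6% were called). Its exons overlap those of Gm43809 on the same strand, so part of the counts may belong to that gene.

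Mrpl1 (gene ID 94061, chr5:96209498-96266727, plus strand) encodes the protein of the mobile stalk past which spent tRNA leaves the ribosome. Its levels were 16.2, 22.2, 18 and 20.1 CPM in CML 1, 2, 3 and 5 and 29.3, 38.7, 49.3 and 27.1 CPM in CML-TKI 1 to 4. The groups did not overlap, and unlike in Mrpl33 CML 5 was not the highest CML library. The log2 fold change was 0.90 (SE 0.29, 95% interval 0.25 to 1.56, edgeR adjusted p = 0.0809), and leaving out single libraries moved the edgeR adjusted p between 0.0473 (without CML-TKI 1, where 20.6% of all genes were called) and 0.226 (without CML 1). In its window CCGGAA appeared downstream of the start, at position 35.

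Mrpl58 (gene ID 68572, chr11:115403724-115412674, plus strand), also known as Ict1, encodes a peptidyl-tRNA hydrolase that frees stalled mitochondrial ribosomes and is itself built into the large subunit. It was at 10.5, 9.84, 9.28 and 12.6 CPM in CML 1, 2, 3 and 5 and at 19.4, 27.6, 20.8 and 14.6 CPM in CML-TKI 1 to 4. The groups did not overlap, with the narrowest gap between CML 5 and CML-TKI 4. The log2 fold change was 0.96 (SE 0.34, 95% interval 0.19 to 1.73, edgeR adjusted p = 0.110), and its exons overlap those of the antisense gene Ict1os. Mrpl33, Mrpl1 and Mrpl58 were the only 3 members with all CML-TKI above all CML libraries, an arrangement found for 10.3% of all genes tested. The opposite arrangement was found for 0 members and for 13.1% of all genes.

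**Figure D2:**
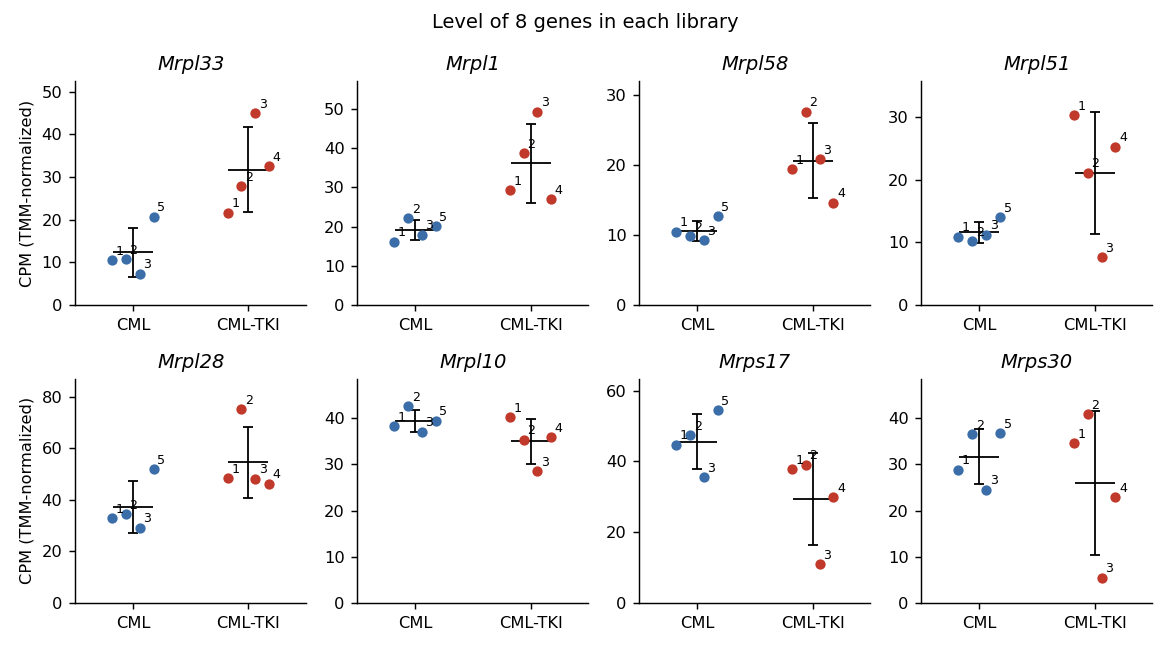
CPM of 8 genes in every library (points, numbered by library), with the mean and SD of each group in black (n = 4 each). Mrpl33, Mrpl1 and Mrpl58 show separate groups, Mrpl51 separate groups but for CML-TKI 3, and the other genes show overlapping groups, with CML-TKI 3 lowest for Mrps17 and Mrps30 and CML-TKI 2 highest for Mrpl28.

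Mrpl51 (gene ID 66493, chr6:125192200-125194392, plus strand), a large-subunit gene added in mitochondria, was at 10.9, 10.2, 11.2 and 14 CPM in CML 1, 2, 3 and 5 and at 30.2, 21.1, 7.67 and 25.2 CPM in CML-TKI 1 to 4. CML-TKI 3 was below all CML libraries and the other CML-TKI libraries were above them. The log2 fold change was 0.88 (SE 0.42, edgeR adjusted p = 0.220), and 1.15 (edgeR adjusted p = 0.0392, where 9.79% of all genes were called) without CML-TKI 3. Mrpl22 encodes a protein that lines the tunnel through which the new peptide leaves. It was at 2.32 to 3.44 CPM in CML and 3.38 to 8.55 CPM in CML-TKI libraries, with a log2 fold change of 1.05 (SE 0.55, edgeR adjusted p = 0.268). Mrps15, the small-subunit gene with the highest fold change, was at 2.70 to 6.60 and 4.38 to 10.2 CPM, with a log2 fold change of 0.83 (SE 0.55, edgeR adjusted p = 0.377). Both are low genes whose groups overlapped.

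At the other end stood Mrps17 (gene ID 66258, chr5:129715450-129718712, plus strand), which encodes a small-subunit protein of bacterial descent. Its levels were 44.8, 47.5, 35.6 and 54.4 CPM in CML 1, 2, 3 and 5 and 37.8, 39.0, 11 and 29.9 CPM in CML-TKI 1 to 4. CML 3 lay below 2 of the CML-TKI libraries, and CML-TKI 3 was far below the rest. The log2 fold change was -0.60 (SE 0.36, 95% interval -1.41 to 0.21, edgeR adjusted p = 0.334). The 5 next genes were Mrpl46 (-0.55), Mrps27 (-0.40), Mrpl39 (-0.38), Mrpl23 (-0.36) and Mrpl24 (-0.35, all log2 fold changes). Mrpl23 and Mrpl24 encode proteins near the mouth of the exit tunnel, and Mrps27 encodes an RNA-binding protein of the small subunit. In each of these 5 genes CML-TKI 3 was the lowest of the 8 libraries, at 1.10 CPM, a single count, for Mrpl46, Mrpl39 and Mrpl23. Their edgeR adjusted p-values ran from 0.560 (Mrpl24) to 0.752 (Mrpl23), and a pseudogene copy, Mrpl23-ps1, could share reads with Mrpl23. Single libraries moved these log2 fold changes both ways. Without CML-TKI 3 they were -0.35 for Mrps17, -0.28 for Mrpl46, -0.11 for Mrps27, -0.097 for Mrpl39, -0.039 for Mrpl23 and -0.22 for Mrpl24, and without CML 5 they were -0.15 for Mrpl23 and -0.17 for Mrpl24. Without CML-TKI 1 the value was -0.84 for Mrpl46 and -0.24 for Mrpl39, without CML-TKI 2 it was -0.64 for Mrps27, and without CML-TKI 4 it was -0.93 for Mrpl39 and -0.60 for Mrpl23.

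Levels can be compared between genes only per length. In CPM per kilobase of annotated exon, averaged over the groups, the members spanned 36.4-fold from Mrpl32 at 1.27 to Mrpl33 at 46.1, with a median of 10.2 against 9.76 for all tested genes with a length. The order at the top differed between the groups. In CML LSCs it was Mrpl28 at 34.7 ± 9.43, Mrpl12 at 27.8 ± 10.3, Mrpl33 at 25.8 ± 12.2, the small-subunit gene Mrps24 at 25.5 ± 10.6 and Mrpl34 at 25.3 ± 11.9 CPM per kilobase (SD, n = 4). In CML-TKI LSCs it was Mrpl33 at 66.4 ± 20.6, Mrpl28 at 51.1 ± 13, Mrpl13 at 35.3 ± 24.7 and Mrpl12 at 28.9 ± 5.24 CPM per kilobase (SD, n = 4). Neighbours in either order differed by less than the larger of their SDs. The exon length counts every annotated exon, so a gene with a long rarely used exon is placed too low, and Mrps17, at 6003 bases, had a level of 6.25 CPM per kilobase. Mrpl28 was at 33.0, 34.4, 29.2 and 51.8 CPM in CML 1, 2, 3 and 5 and at 48.4, 75.3, 48.2 and 46.3 CPM in CML-TKI 1 to 4. Only CML 5 kept its groups from separating, and the log2 fold change was 0.56 (SE 0.28, edgeR adjusted p = 0.245), or 0.35 without CML-TKI 2. Mrpl13 was at 21.6 to 32.2 CPM in CML and 18.3 to 83.4 CPM in CML-TKI libraries. Its log2 fold change of 0.65 (SE 0.46, edgeR adjusted p = 0.419) was 0.062 without CML-TKI 1. Mrpl34 was at 10.4 to 25.7 and 4.38 to 27.3 CPM. Its log2 fold change of 0.11 (SE 0.52, edgeR adjusted p = 0.925) ran from -0.25 without CML-TKI 4 to 0.46 without CML 5.

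The stalk that recruits translation factors to the large subunit is built from Mrpl12 on a base of Mrpl10 and Mrpl11, and Mrpl12 also binds the mitochondrial RNA polymerase. Mrpl10 was at 37.1 to 42.7 CPM in CML and 28.5 to 40.3 CPM in CML-TKI libraries, at 39.4 ± 2.39 and 35 ± 4.86 CPM (SD, n = 4 each). Its log2 fold change of -0.16 (SE 0.23, edgeR adjusted p = 0.705) had a 95% interval of -0.67 to 0.34, which leaves out a 2-fold change either way, and was -0.071 without CML-TKI 3. Mrpl11 was at 8.12 to 12.2 and 5.72 to 18.6 CPM, with a log2 fold change of 0.26 (SE 0.46) that ran from 0.028 without CML-TKI 3 to 0.50 without CML-TKI 4. Mrpl12 was at 27.2 to 56.6 and 30.7 to 45.2 CPM. Its log2 fold change of 0.06 (SE 0.30) ran from -0.066 without CML 2 to 0.34 without CML 5. Its CML 5 value of 56.6 CPM was the highest of the 8 libraries.

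The 3 Mrps18 paralogs are related to one another and sit at different places, Mrps18a in the large and Mrps18b and Mrps18c in the small subunit. Mrps18c was counted above among the proteins with a bacterial homolog. Mrps18a and Mrps18b were counted among those added in mitochondria although they are related to Mrps18c, so that split does not follow descent for them. Mrps18b was the most abundant, at 20.1 ± 1.73 CPM in CML and 26.9 ± 9.50 CPM in CML-TKI LSCs, with a log2 fold change of 0.42 (SE 0.32, edgeR adjusted p = 0.460), or 0.17 without CML-TKI 1. Mrps18a was at 9.86 ± 3.65 and 11.7 ± 3.51 CPM, with a log2 fold change of 0.22 (SE 0.44) that ran from 0.038 without CML-TKI 3 to 0.47 without CML 5. Mrps18c was at 3.86 ± 2.07 and 3.88 ± 1.40 CPM (SD, n = 4 each), with a log2 fold change of -0.0099 (SE 0.63, 95% interval -1.41 to 1.39). This interval includes a 2-fold change of Mrps18c in either direction.

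Besides Mrps18a, the symbols of Mrps30 and Mrps36 did not match the place of the protein. Mrps30 encodes a large-subunit protein and was at 28.9, 36.5, 24.5 and 36.7 CPM in CML 1, 2, 3 and 5 and at 34.6, 40.9, 5.48 and 22.9 CPM in CML-TKI 1 to 4. Its log2 fold change was -0.25 (SE 0.47, edgeR adjusted p = 0.785) and was 0.061 without CML-TKI 3 and -0.54 without CML-TKI 2. Mrps36 is now known as a component of the 2-oxoglutarate dehydrogenase complex rather than of the ribosome. It was at 2.71 to 5.36 and 4.56 to 9.30 CPM, with a log2 fold change of 0.79 (SE 0.54, edgeR adjusted p = 0.400), and has 3 named pseudogene copies. Mrpl52 was the gene left untested, with 11, 8, 5 and 23 counts in CML 1, 2, 3 and 5 and 16, 0, 0 and 13 counts in CML-TKI 1 to 4. Among the genes named here, exons of Mrpl10, Mrpl12, Mrpl13, Mrpl24, Mrps18b, Mrps27 and Mrps30 overlap a gene on the opposite strand and those of Mrpl51 and Mrps18c one on the same strand, and the counts cannot separate them.

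CML 5 carried more mitochondrial ribosomal protein mRNA than the other CML libraries. It was the highest of the 4 for 62 of the 77 tested genes (80.5%), compared with 40.7% of all genes tested, and lay above the mean of CML 1, 2 and 3 for 73 of 77. The median difference on the log2 CPM scale was 0.43 for members and 0.02 for all genes. Exon length moved with it. Members of up to 1398 bases, their median length, had a median difference of 0.74 (n = 39) and longer ones 0.32 (n = 38), and other genes had 0.64 (n = 1147) up to that length and -0.06 (n = 10482) beyond it. Spearman's rho of the difference with exon length was -0.46 over members and -0.52 over all 11706 genes with a length, a description across genes that share a library. Rn45s, whose share of counts was 20.2% to 23.1% in CML 1, 2 and 3, took 38.3% of CML 5. Without CML 5 the members' median log2 fold change was 0.29, with 61 of 77 above 0, 4 passing an unadjusted p under 0.05 in edgeR (24.1% of all genes) and 1, Mrpl33, called (6.6% of all genes). The part of exon length in these values was not tested.

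**Figure D3:**
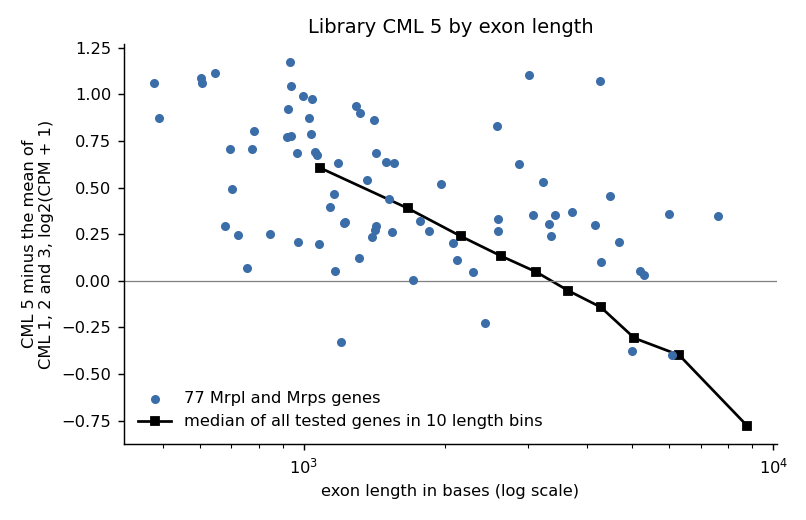
Difference between CML 5 and the mean of CML 1, 2 and 3 in log2(CPM + 1) against exon length on a log axis, for the 77 tested genes (points) and as the median of all tested genes in 10 bins of length (line). Short genes were higher in CML 5, the median of all genes running from 0.61 in the shortest bin to -0.78 in the longest, and the members are mostly short.

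Among the CML-TKI libraries CML-TKI 3 stood apart on the low side. Against the mean of the CML libraries the members had a median log2 CPM difference of 0.26, 0.17, -0.21 and 0.18 in CML-TKI 1 to 4, with 56, 48, 34 and 47 of 77 above 0. The medians of all genes were 0.03, -0.09, -0.14 and -0.03, so that in CML-TKI 3 the median of all genes lay below 0 as well. CML-TKI 3 was the lowest CML-TKI library for 41 of 77 members, against 32.6% of all genes tested. This library had the fewest counts, 1041562, and the highest globin level. The median within-group SD of log2 CPM was 0.31 in CML and 0.66 in CML-TKI libraries for members, the same as for all genes to within 0.01, and in CML 1, 2 and 3 alone it was 0.20 for members and 0.15 for all genes.

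**Figure D4:**
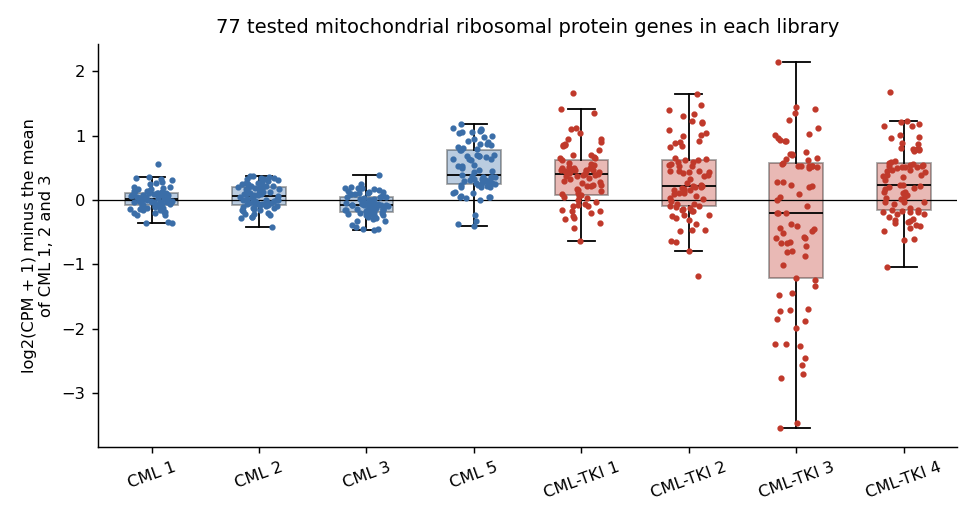
Level of the 77 tested genes in each library as log2(CPM + 1) minus the mean of CML 1, 2 and 3 (points), with boxes at the quartiles, a line at the median and whiskers to the farthest point within 1.5 box lengths. CML 5 sits above the other CML libraries and CML-TKI 3 spreads widely, with its median below 0.

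The other genes of mitochondrial gene expression were compared in the same fit. The table held 5 ribosomal proteins whose symbols fall outside the rule, and none was called. Ptcd3, an RNA-binding protein of the small subunit, was at 53.0 ± 11.8 and 68.3 ± 15.8 CPM in CML and CML-TKI LSCs, and Dap3, a GTP-binding protein of the small subunit, at 48.7 ± 3.17 and 56.5 ± 13.5 CPM (SD, n = 4 each). The log2 fold changes of the 5 were 0.38 for Ptcd3, 0.22 for Dap3, 0.55 for Aurkaip1, 0.46 for Chchd1 and 0.27 for Gadd45gip1. Of 28 genes for ribosome assembly and rRNA modification 0 were called, with a median log2 fold change of -0.09. The 13 translation factors had a median of 0.19 with 10 above 0, the 21 tRNA synthetases and related enzymes (among the latter Qrsl1, Gatb, Gatc and Ptrh2) one of 0.00 and the 22 genes for maintenance and transcription of mitochondrial DNA one of -0.17, and 0 of each were called, where the test called 10.2% of all genes. Over these lists and the 5 proteins, 10 of 89 tested genes had an unadjusted p under 0.05 in edgeR, against 25.7% of all genes, 6 with lower and 4 with higher values in CML-TKI LSCs. Those named here were picked with their values known. The smallest p-values belonged to genes with lower values, Trmt2b and Mrm1, which encode methyltransferases of mitochondrial RNA. Trmt2b had a log2 fold change of -0.75 (SE 0.24, edgeR adjusted p = 0.0797) and Mrm1 one of -1.11 (SE 0.36, edgeR adjusted p = 0.0825). Twnk, the helicase of mitochondrial DNA, followed with -0.96 (SE 0.33, edgeR adjusted p = 0.0987), and Iars2, Hsd17b10 and Nars2 were also lower. Exons of Twnk overlap those of the member Mrpl43 on the opposite strand, and the counts cannot separate them. Of the 4 with higher values, Nrf1 had a log2 fold change of 0.51 (edgeR adjusted p = 0.137), and the others were Gfm1, Gfm2 and Mtif2. These last 3 encode the elongation factor that moves the ribosome along the mRNA, a factor that splits it after termination, and the initiation factor that brings the first tRNA. Gfm1 was at 34.7 ± 3.62 and 51.0 ± 5.81 CPM, with a log2 fold change of 0.55 (SE 0.22, edgeR adjusted p = 0.146). Every CML-TKI library lay above every CML library for Gfm1, Nrf1 and Mtif2, as for 10.3% of all genes tested. Every CML-TKI library lay below for Trmt2b, Mrm1, Twnk, Iars2, Hsd17b10 and Nars2, as for 13.1% of all genes, and the groups overlapped for Gfm2. Gfm2 had a log2 fold change of 0.72 (edgeR adjusted p = 0.130) and Mtif2 one of 0.69 (edgeR adjusted p = 0.170). The 28 genes listed for mitochondrial DNA itself, rRNAs and tRNAs included, were not found among the counts under the symbols searched. They could therefore not be analysed here.

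**Figure D5:**
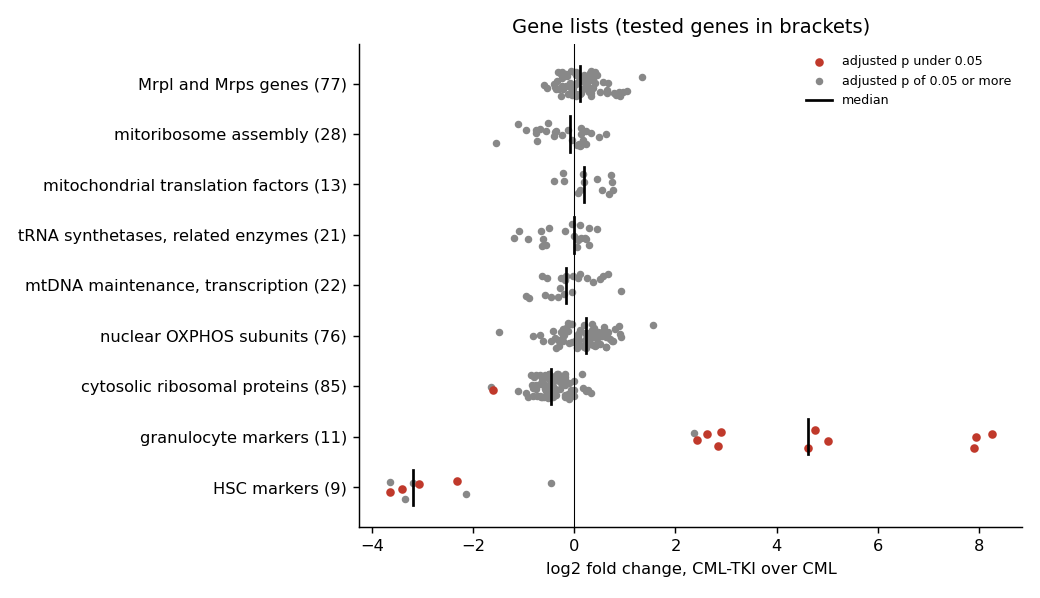
Log2 fold change of CML-TKI over CML for each tested gene (points) of the lists named at left, with the number tested in brackets. Red points have an edgeR adjusted p under 0.05 and black lines mark medians. The 4 lists of mitochondrial gene expression plotted under the Mrpl and Mrps genes hold no red point and centre between -0.17 and 0.19, the cytosolic ribosomal proteins centre at -0.45, and the granulocyte and stem cell markers lie far to either side.

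A pair of larger families gives the scale. Of 76 nuclear genes for subunits of oxidative phosphorylation, which work beside the products of mitochondrial translation, 0 were called and the median log2 fold change was 0.24, with 53 above and 23 below 0. Of 85 genes for cytosolic ribosomal proteins 1, Rpl22, was called, as lower, and the median was -0.45 with 80 below 0. Of all genes tested, 10.2% were called. Rpl22 was at 194 ± 15.5 CPM in CML and 63.2 ± 18.7 CPM in CML-TKI LSCs (SD, n = 4 each), with a log2 fold change of -1.62 (SE 0.25, edgeR adjusted p = 0.00395). The summed level of the cytosolic ribosomal proteins was 19444 to 32036 CPM in CML and 14599 to 18323 CPM in CML-TKI libraries, which did not overlap, whereas the summed level of the mitochondrial ones did. The difference between these families was not tested.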

How the data were processed

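LSC libraries from 4 CML and 4 CML-TKI samples were analysed. Per the study's methods and processing notes, RNA was isolated with the RNeasy Plus kit, libraries were made with Nextera XT, which does not mark strand, and paired reads were aligned to mm10 with STAR 2.6.1d and quantified to RefSeq transcripts in Partek 8.0. The authors deposited estimated counts per gene, not normalized, with 5 of 15576 genes at 0 in all libraries. Because reads shared between genes can be split or assigned to either, values are uncertain for the 26 members whose exons overlap another gene (22 of them on the opposite strand) and for the 3 with named pseudogene copies. The table also held 20 symbols turned into dates.

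Columns were matched to sample titles by group and number. The sample descriptions repeat one column name for several samples and were not used. The column numbered 5 matched no title and was used as a CML library by its group. Non-whole estimates were rounded before testing. The two-sided quasi-likelihood test of edgeR 4.0.16 (R 4.3.3, robust dispersions) was run over the 11937 genes kept by filterByExpr (counts of at least 10, totals of at least 15), with TMM scaling and Benjamini-Hochberg adjustment over all of them. The main text of the paper names no test for these data. Levels are given as TMM-scaled CPM, and a prior count of 2 was added for log2 CPM. Floors are 3 counts and cover counting error only, since reads carried no molecular identifiers. Exon lengths came from GENCODE vM21 and coordinates and promoters from RefSeq (GRCm38.p6). The fits were tested on simulated data. Alternatives were DESeq2 1.42.0, limma-voom with sample quality weights (limma 3.58.1), other scalings, filters, thresholds, a replicate block and left-out libraries.

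The members, the gene lists and the tests were chosen with earlier results of these data known. Members were named by rule: those called, the 6 with the largest fold changes in each direction, the 5 highest per kilobase, the stalk, the Mrps18 paralogs, Mrps30 and Mrps36, whose place differs from their symbol as does that of Mrps18a, and those not tested. The values of the authors' other experiments were not used here.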

Additional observations from a re-analysis of the deposited data

Results flagged for a closer look

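Over 58 sets of 4 libraries checked, 3 had a sample far from the others, and chance gives about 1 in 20, or about 3. Mrpl28 stood at 75.3 CPM in CML-TKI 2, and at 48.4, 48.2 and 46.3 CPM in CML-TKI 1, 3 and 4. The summed Mrps genes stood at 421 CPM in CML-TKI 3, and at 560, 575 and 551 CPM in CML-TKI 1, 2 and 4. The median member stood at 3.51 log2 CPM in CML-TKI 3, and at 4.15, 4.18 and 4.14 in CML-TKI 1, 2 and 4. CML-TKI 3 is the library with the fewest counts, and the part of depth in its values was not tested.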

How the results depend on the processing

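The count of members called lower was 0 under all 22 alternatives run, 19 of them planned. The count called higher was 3 with DESeq2 (Mrpl1, Mrpl33 and Mrpl58), 2 with limma-voom and quality weights (Mrpl33 and Mrpl51), 1 with library totals, where 8.69% of all genes were called, and 1 with a filter of 1 CPM in all 8 libraries, with 12.6% (Mrpl33 in both), 2 at an adjusted p under 0.1, with 16.4% (Mrpl1 and Mrpl33), and 0 to 2 when single libraries were left out: Mrpl33 without CML 5, Mrpl1 and Mrpl33 without CML-TKI 1, and Mrpl51 without CML-TKI 3. After seeing the data, 2 pairs of libraries were also left out, which gave 1 call without CML 5 and CML-TKI 1 (Mrpl33, with 20% of all genes called) and 2 calls without CML 5 and CML-TKI 3 (Mrpl33 and Mrpl51, with 7.75%). In every other setting the count was 0. With CML 1, 2 and 3 summed to 1 library only 0.971% of all genes were called and the adjusted p of Mrpl33 was 0.459, so that 0 says little about the members there. The median log2 fold change of the members was -0.011 with totals without Rn45s, -0.0088 with CML 1, 2 and 3 summed, 0.23 with library totals, 0.18 with limma-voom and quality weights, 0.05 to 0.29 without single libraries, and 0.37 without CML 5 and CML-TKI 3. The cause was not tested.

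The paper does not say whether the shared replicate numbers pair the samples. Correlations of same-numbered deviations were -0.02, 0.15 and 0.09, and those of differently numbered ones ran from -0.18 to 0.083. With so few libraries these values cannot decide whether the numbers pair animals. With a replicate block over numbers 1 to 3 (6 libraries) 0 members and 193 genes were called and the members' median was 0.21 and that of all genes -0.13, against 0 members, 589 genes, 0.28 and 0.013 without the block in the same libraries.

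The sign turned for 6 named genes. With totals without Rn45s, a scaling that moved the median of all genes to -0.12, Mrpl12 was -0.072 and Mrpl34 -0.013, a shift that all genes shared. Mrpl12 was -0.21 with CML 1, 2 and 3 summed, and -0.066 to 0.34 without single libraries. Mrpl34 was -0.22 and -0.25 to 0.46 under the same settings and -0.051 with the replicate block. Mrps18a was -0.030 with CML 1, 2 and 3 summed. Mrps18c was 0.13 with limma-voom and quality weights, 0.10 with library totals, 0.69 with the replicate block and 0.69 without it in the same 6 libraries, 0.34 without CML 5 and CML-TKI 1, 0.38 without CML 5 and CML-TKI 3, and -0.19 to 0.42 without single libraries. Mrpl23 was 0.18 and Mrps30 0.14 without CML 5 and CML-TKI 3, and Mrps30 was -0.54 to 0.061 without single libraries (log2 fold changes throughout). The cause was not tested. Depth was least in CML-TKI 3, with a median of 10 counts a member.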
